A study of Mus musculus with 18 samples.

Results

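Cytosolic ribosomal protein genes were examined in adipocytes of bone marrow and of epididymal fat at 3 ages. A gene was included when a probe set named it alone and its symbol was that of a protein of the large subunit (Rpl with a number, with or without the suffix a, x or l), of the small subunit (Rps in the same form), of the ribosomal stalk (Rplp0, Rplp1, Rplp2) or Rpsa. This gave 59 genes of the 19938 named alone on a probe set, carried by 215 of the 23410 probe sets tested. A gene with more than 1 probe set is given by the one with the highest mean over the 18 arrays. A further 16 ribosomal protein genes, Rpl3, Rpl11, Rpl13a, Rpl15, Rpl17, Rpl31, Rpl32, Rpl35, Rpl35a, Rpl37, Rpl39, Rps16, Rps23, Rps24, Rps26 and Rps27, are named only on probe sets shared with other genes and are left out of the counts. The rule chose genes by symbol and not by a measured value, but it was set with earlier results of these data known.

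The ribosome reads mRNA on its small subunit and joins amino acids on its large subunit, and each subunit is a scaffold of ribosomal RNA held by proteins that are mostly present in a single copy. The mRNAs of these proteins begin with a run of pyrimidines, the 5′ terminal oligopyrimidine or TOP motif, through which the kinase complex mTORC1 controls their translation. Ribosomal protein mRNAs are abundant in dividing and secretory cells, and a shortage of single members disturbs red cell formation in Diamond-Blackfan anemia.

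Adipocytes came from male C57BL/6J mice of 6, 14 and 18 months of age, both cell types from the same mice. Bone marrow adipocytes were flushed from femur and tibia and floated after lysis of red cells, and epididymal white adipocytes, labelled peripheral, were floated after collagenase digestion. Each of the 6 groups had 3 arrays of RNA pooled from several animals, so that the spread and every p-value refer to pools and not to single mice. No cells were sorted, and there was no treatment or genetic change in any group.

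All 9 measured markers of mature adipocytes were lower in bone marrow, with an array mean of 6.36 to 7.13 on the log2 scale in bone marrow and 11.96 to 12.43 in epididymal arrays. Genes of neutrophils, erythroid cells and proliferation stood higher in bone marrow. Beside the epididymal arrays, the bone marrow arrays thus carried little of the defining signal of their label. By RT-PCR the paper found adipocyte genes such as leptin and adiponectin higher in these cells than in marrow cells that did not float. It also reports similar shares of CD11b-positive cells in both preparations. On these arrays all 8 macrophage and monocyte markers were higher in bone marrow over the 3 ages, with a median difference of 1.685. At 14 months 3 of the 8 were higher and 1 lower, with a median of 0.28. In preparations of mixed cells, fewer cells of a type and less RNA per cell cannot be told apart. The deposited values run from 1.90 to 14.64. Bone marrow 6-month replicate 1 stood apart from its 2 fellow arrays: 20 ribosomal protein genes were more than 0.5 below their mean and 10 more than 0.5 above it, with a median gap of 0.53, against 0.25 over all tested probe sets. Its effect on the counts is given with each comparison.

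The starts of the genes are shown first, because the TOP motif is a run of pyrimidines at the start of the mRNA. Each window holds the 50 bases before and the 30 bases from the start that RefSeq lists for the gene (mouse build GRCm38.p6), with the longest run of C and T in capitals, and both runs where 2 were equally long. The 4 genes with the largest depot difference come first, then Rps6, the substrate of S6 kinase, which differed little, and a pair of paralogs, Rpl3l and Rpl39l. The windows are chr2:32961662-32961741 on the plus strand for Rpl12, chr17:33824533-33824612 on the minus strand for Rps28, chr3:130730369-130730448 on the minus strand for Rpl34, chr7:118116118-118116197 on the minus strand for Rps15a, chr4:86857338-86857417 on the minus strand for Rps6, chr17:24727776-24727855 on the plus strand for Rpl3l and chr16:10170178-10170257 on the plus strand for Rpl39l.
Rpl12: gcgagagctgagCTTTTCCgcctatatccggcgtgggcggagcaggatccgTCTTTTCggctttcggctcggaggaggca
Rps28: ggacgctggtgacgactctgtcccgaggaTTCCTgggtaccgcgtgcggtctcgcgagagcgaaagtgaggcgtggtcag
Rpl34: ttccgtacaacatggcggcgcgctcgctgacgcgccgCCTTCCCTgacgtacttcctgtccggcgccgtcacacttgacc
Rps15a: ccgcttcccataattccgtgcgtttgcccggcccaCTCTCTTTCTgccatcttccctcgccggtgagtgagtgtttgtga
Rps6: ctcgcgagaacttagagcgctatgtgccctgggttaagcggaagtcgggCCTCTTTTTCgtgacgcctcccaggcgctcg
Rpl3l: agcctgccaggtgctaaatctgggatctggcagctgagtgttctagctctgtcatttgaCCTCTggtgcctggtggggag
Rpl39l: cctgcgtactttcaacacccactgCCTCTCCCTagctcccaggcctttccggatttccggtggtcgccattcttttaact

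The longest run was 10 bases in Rps15a and Rps6, 9 in Rpl39l, 8 in Rpl34, 7 in Rpl12 and 5 in Rps28 and Rpl3l. In Rpl12 the first of its 2 runs began 38 bases before the listed start and the other at base 2 from it. In Rps6 the run began 1 base before the listed start, and in Rps15a 15 bases before it. Listed starts can lie some bases away from the base where transcription begins, so the run need not stand at the first base.

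Most ribosomal protein genes were higher in bone marrow than in epididymal adipocytes. Over the 3 ages, 49 of the 59 genes were higher in bone marrow at an adjusted p under 0.05, 1 was lower and 9 did not pass. Of all probe sets tested, 26.9% were higher and 31.2% lower. The median log2 difference of the genes was 0.68, a ratio of 1.61, beside a median of -0.02 over all tested probe sets, and 57 of the 59 differences were above 0. A fold of 2 was passed by 11 genes (background 10.2%), and in 28 genes all 9 bone marrow arrays lay above all 9 epididymal arrays (background 12.4%). The mean of the 59 genes per array lay between 10.11 and 10.47 in bone marrow and between 9.37 and 9.79 in epididymal arrays, without overlap. With bone marrow 6-month replicate 1 left out, 51 genes were higher and the median was 0.70.

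**Figure D1:**
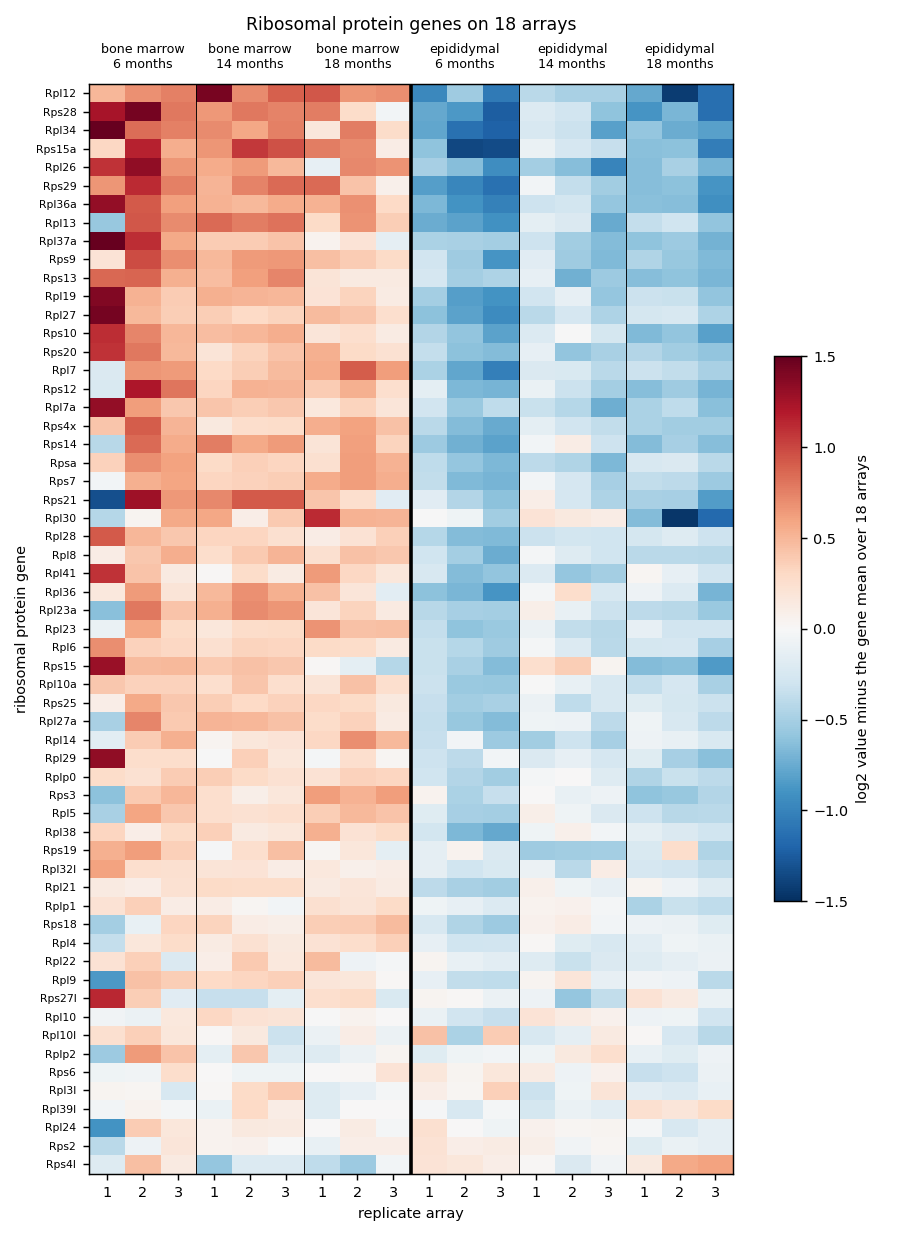
Heat map of the 59 genes (rows, from the largest to the smallest depot difference) on the 18 arrays (columns, 3 replicate arrays a group), as the log2 value minus the gene's own mean over the 18 arrays, with colours ending at 1.5 either way. Red fills most of the 9 bone marrow columns and blue the 9 epididymal ones, bone marrow 6-month replicate 1 mixes deep red and deep blue, and the bottom rows hold little colour of either kind.

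In the large subunit, 28 of 30 genes stood higher in bone marrow (median difference 0.70). Rpl12, which lies at the base of the stalk where elongation factors bind, had the largest difference of all. Its lowest, median and highest log2 values were 6.53, 6.74 and 7.46 in bone marrow, against 4.61, 5.27 and 5.63 in epididymal arrays. The 2 sets of arrays did not overlap, and the difference was 1.61 (SE 0.11, adjusted p = 7.4e-11). Rpl34 had 8.06, 8.64 and 9.66 in bone marrow, against 6.68, 7.11 and 7.65 in epididymal arrays. Its groups were apart too, with a difference of 1.47 (SE 0.13), and bone marrow 6-month replicate 1 held its highest value. Rpl26, which binds p53 mRNA in human cells, had 8.32, 9.12 and 9.78 in bone marrow, against 7.47, 7.81 and 7.97 in epididymal arrays. The lowest bone marrow array, of 18 months, still stood above every epididymal array, and the difference was 1.34 (SE 0.12, adjusted p = 4.95e-09).

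Rpl13 showed how far 1 array could stray. It had 9.69, 10.98 and 11.20 in bone marrow, against 9.35, 9.67 and 10.12 in epididymal arrays, where the lowest bone marrow value was that of 6-month replicate 1 and the other 8 were above every epididymal value. The difference was 1.07 (SE 0.15, adjusted p = 4.03e-06). Rpl36a, Rpl37a, Rpl19 and Rpl27, chosen after their values were seen, had differences of 1.32, 1.07, 1.00 and 0.99. At the other end, Rpl22 had 0.31, Rpl4 0.32 and Rpl10 0.17, all 3 called higher, while Rpl9 at 0.29 (adjusted p = 0.0711) and Rpl24 at 0.02 (adjusted p = 0.91) did not pass.

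In the small subunit, 18 of 20 genes stood higher in bone marrow (median difference 0.90). Rps28, which sits by the exit of the mRNA channel, had 9.59, 10.41 and 11.07 in bone marrow, against 8.40, 8.87 and 9.43 in epididymal arrays. Its groups did not overlap and differed by 1.48 (SE 0.11, adjusted p = 7.75e-10). Rps15a had 7.71, 8.30 and 8.75 in bone marrow, against 6.23, 6.99 and 7.50 in epididymal arrays, again apart, with a difference of 1.39 (SE 0.13). Rps29, a zinc-binding protein of the head of the subunit, had 9.89, 10.56 and 10.93 in bone marrow, against 8.69, 9.17 and 9.77 in epididymal arrays. All of its bone marrow arrays were above its epididymal ones, by a mean of 1.33 (SE 0.10).

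Rpsa, a small subunit protein also known as the laminin receptor, had 11.41, 11.53 and 11.87 in bone marrow, against 10.50, 10.76 and 10.96 in epididymal arrays, without overlap. Its difference was 0.89 (SE 0.07, adjusted p = 2.35e-09). Rps19, the gene most often mutated in Diamond-Blackfan anemia, had 7.52, 7.92 and 8.31 in bone marrow, against 7.15, 7.45 and 7.94 in epididymal arrays. Its groups overlapped, with a difference of 0.50 (SE 0.09, adjusted p = 8.38e-05). Rps6 and Rps2 were the genes of this subunit that did not pass, with differences of 0.06 (adjusted p = 0.512) and -0.02 (adjusted p = 0.827). Rps6 had 12.71, 12.78 and 13.03 in bone marrow, against 12.43, 12.82 and 12.95 in epididymal arrays, which overlapped almost wholly. With arrays centred on housekeeping genes the difference of Rps6 was 0.28 (adjusted p = 0.0083).

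Of the stalk proteins, Rplp0 and Rplp1 were higher in bone marrow and Rplp2 did not pass. Rplp0, which anchors the stalk to the large subunit, had 12.62, 12.70 and 12.78 in bone marrow, against 11.89, 12.07 and 12.41 in epididymal arrays. Its groups were apart, by 0.59 (SE 0.06, adjusted p = 2.60e-08). Rplp1 had a difference of 0.34 (SE 0.06) with overlapping groups, and its partner Rplp2 had 0.08 (SE 0.13, adjusted p = 0.647). Without bone marrow 6-month replicate 1, where Rplp2 was lowest, its difference at 6 months was 0.63 (adjusted p = 0.00213), against 0.27 with it (adjusted p = 0.351).

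Rpl5 and Rpl23 bind and hold back Mdm2, the ligase that marks p53 for breakdown, when ribosome assembly is disturbed. Rpl5 had 10.85, 11.71 and 11.94 in bone marrow, against 10.83, 11.04 and 11.43 in epididymal arrays, with overlap from the low value of bone marrow 6-month replicate 1, and a difference of 0.56 (SE 0.11, adjusted p = 0.000185). Rpl23 had 11.29, 11.68 and 12.06 in bone marrow, against 10.79, 11.04 and 11.30 in epididymal arrays, where the same low array alone made the overlap. Its difference was 0.68 (SE 0.08, adjusted p = 6.2e-07).

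Of the 6 paralogs whose symbols end in l, 1 was higher in bone marrow, 1 lower and 4 did not pass, with a median of 0.08, against 48 of 53 higher and a median of 0.71 among the other genes. Rpl32l was the higher one, by 0.43 (SE 0.07). Rps4l, which RefSeq lists as a transcribed pseudogene, had 6.40, 6.77 and 7.43 in bone marrow, against 6.76, 7.12 and 7.57 in epididymal arrays, with overlap. Its difference was -0.34 (SE 0.10, adjusted p = 0.00508), and -0.12 with arrays centred on housekeeping genes (adjusted p = 0.361).

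Rpl3l, which replaces Rpl3 in heart and skeletal muscle, had 4.11, 4.38 and 4.75 in bone marrow, against 4.04, 4.29 and 4.71 in epididymal arrays. Rpl39l, a paralog enriched in testis, had 3.58, 3.78 and 4.07 in bone marrow, against 3.51, 3.74 and 4.06 in epididymal arrays. For both genes the groups covered nearly the same range, with differences of 0.04 (SE 0.08) and 0.03 (SE 0.07). Rpl10l, another paralog of the testis, had a difference of 0.12 (SE 0.11). These 3 genes were dim, with means below 5.99, the median value over the tested probe sets, so that a difference may not be measurable there. Rps27l, a target gene of p53, had 7.56, 7.76 and 9.03 in bone marrow, against 7.32, 7.83 and 8.12 in epididymal arrays, with a difference of 0.18 (SE 0.13). With arrays centred on housekeeping genes these 4 paralogs were called higher, at 0.25 to 0.40, as that scaling moved the median of all probe sets to 0.20.

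**Figure D2:**
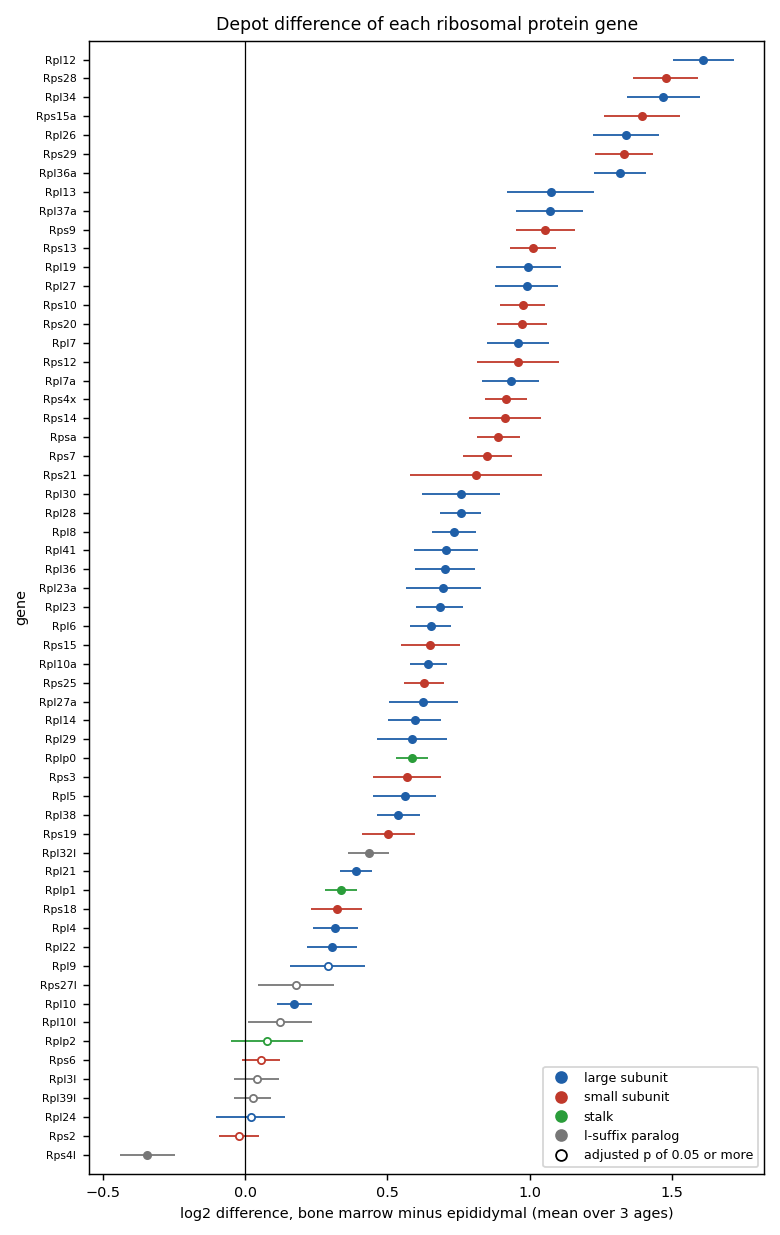
Log2 difference of each gene, bone marrow minus epididymal, as the mean over the 3 ages with its standard error (horizontal axis), by gene (vertical axis) and coloured by class, with open points for an adjusted p of 0.05 or more. Points run from -0.34 (Rps4l) to 1.61 (Rpl12), and the open points gather below 0.30.

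The depot difference was the same way on nearly all probe sets of a gene. Of the 215 probe sets, 195 were called higher in bone marrow and 2 lower, with a median difference of 0.76. Of 39 genes with more than 1 probe set, 33 had each of them called higher and 0 had calls in both directions. Rps28 had 7 probe sets, at 1.47 to 1.65, Rps12 had 14 at 0.93 to 1.09, and Rpl23a had 13 at 0.66 to 0.88. Rps6 was less even: of 8 probe sets at 0.06 to 0.31, 6 were called, and the mean over them gave 0.21 (adjusted p = 0.00921). Rpl9 had 3 of 8 called, Rps2 had 1 of 3, and Rpl24 had 0 of 3. Both probe sets of Rps4l were called lower, at -0.34 and -0.94. Ribosomal protein genes have many near-identical pseudogenes, and probes cannot always tell a gene from such copies. Probe sets of a gene can also share probes, so they are not independent measurements.

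At single ages the depot difference was found with the same direction. At 6 months 42 genes were higher in bone marrow and 0 lower (background 22% higher and 24.3% lower), with a median of 0.85. Without bone marrow 6-month replicate 1, 48 were higher with a median of 0.94, among them Rps18 at 0.52 (adjusted p = 0.003), against 0.31 with it (adjusted p = 0.112). At 14 months 38 were higher and 0 lower (background 21.6% higher and 24.2% lower), with a median of 0.57. At 18 months 43 were higher and 2 lower, Rps4l and Rpl39l (background 21.6% higher and 25.5% lower), with a median of 0.66. Without the same array 44 were higher at 14 months, and 47 higher and 2 lower at 18 months. At 6 and 14 months 43 and 42 genes had an unadjusted p under 0.05 in limma in either direction, and these include the 42 and 38 genes called higher. No share over all probe sets was taken for the unadjusted counts or for those with an array left out. Rpl39l at 18 months had -0.29 (adjusted p = 0.0416) but 0.14 with arrays centred on housekeeping genes, and its call was lost without any of 5 arrays, all of 18 months. In all, 33 genes were called higher at every age, 8 at 2 ages, 8 at 1 age and 10 at no age, while 15.1% of all probe sets were called higher at every age and 70.8% at none.

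The groups of a single age were mostly apart. All 3 bone marrow arrays lay above all 3 epididymal arrays in 38 genes at 6 months (background 22.4%), in 46 at 14 months (background 27.6%) and in 50 at 18 months (background 27.5%). The opposite order was seen in 0 genes at 6 months (background 25.9%), 0 at 14 months (background 29.4%) and 2 at 18 months (background 30.8%). A fold of 2 was passed by 25 genes at 6 months (background 11.4%), 10 at 14 months (background 9.91%) and 13 at 18 months (background 10.9%). The difference was largest at 6 months in 38 of the 59 genes, a count with no share over all probe sets beside it. The 6-month bone marrow arrays were also the most spread, with a median SD of the genes of 0.34. Among the 38 genes, Rps28 differed by 2.11 at 6 months, 1.09 at 14 months and 1.23 at 18 months, and Rpl34 by 2.15, 1.14 and 1.12. Rpl12 kept a difference of 1.49, 1.47 and 1.87 at the 3 ages.

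With age, few ribosomal protein genes were called in bone marrow. The mean of the 59 genes was 10.32 ± 0.13 at 6 months, 10.25 ± 0.03 at 14 months and 10.18 ± 0.06 at 18 months (SD, n = 3 arrays each). At 14 months 0 genes were higher and 1 was lower than at 6 months (background 5.08% higher and 3.58% lower). In either direction 13 had an unadjusted p under 0.05 in limma, a count with no share over all probe sets beside it. At 18 months 1 was higher and 5 were lower (background 3.37% higher and 5.13% lower). All 3 arrays of the older group lay below those of 6 months in 13 genes at 14 months (background 10%) and in 13 at 18 months (background 13%), and above them in 2 at each age (background 9.92% and 7.23%). The spread at 6 months limits this comparison: the median SD of the genes was 0.34 there, against 0.09 and 0.12 in the older groups. Without bone marrow 6-month replicate 3, 9 genes were lower at 14 months and 16 at 18 months. Counts with an array left out have no share over all probe sets beside them here. Without replicate 1, 0 were higher and 2 lower at 14 months, and 0 were higher and 8 lower at 18 months, where the median was -0.19 in place of -0.08. Rps4l was among those lower without it, at -0.63 (adjusted p = 0.0283) and -0.62 (adjusted p = 0.0353).

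Markers of other cells also differed between the ages in bone marrow. Of 6 endothelial markers 4 were lower at 14 months and 5 at 18 months, with array means of 5.90 to 6.74 at 14 months and 5.99 to 6.26 at 18 months, against 6.89 to 7.24 at 6 months. Of 7 B lineage markers 5 were higher at 14 months, with array means of 8.76 to 9.07, against 7.87 to 8.03 at 6 months. Of 8 macrophage and monocyte markers 3 were higher at 14 months, at 10.45 to 10.76, against 10.05 to 10.14 at 6 months. Their part in the ribosomal protein values was not tested.

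Rpl37a, a zinc-finger protein of the large subunit, had 9.66, 9.81 and 9.48 at 18 months and 9.99, 9.99 and 10.04 at 14 months, against 11.46, 10.72 and 10.18 at 6 months in bone marrow. Both older groups lay below the youngest, which was itself widely spread. The difference was -1.14 at 18 months (SE 0.20, adjusted p = 0.00294) and -0.78 at 14 months (adjusted p = 0.0217). Without bone marrow 6-month replicate 1 they were -0.80 and -0.45, and at 14 months the adjusted p was then 0.0675. That call was also lost without any 1 of the 14-month bone marrow arrays, and with the compared groups alone (adjusted p = 0.244).

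Rps15, a protein of the small subunit's head near the decoding site, had 11.01, 10.84 and 10.57 at 18 months, against 12.29, 11.47 and 11.48 at 6 months in bone marrow. All 18-month arrays were lower, by 0.94 on the log2 scale (SE 0.18, adjusted p = 0.00381), and the smallest decrease with any 1 array left out was 0.67. Rps28 had 10.41, 9.90 and 9.59 at 18 months, against 10.88, 11.07 and 10.43 at 6 months. Its groups were only just apart, with a difference of -0.82 (SE 0.20, adjusted p = 0.0156) and a highest adjusted p of 0.0784 with 1 array left out (bone marrow 18-month replicate 3). The call of Rps28 was also lost without bone marrow 6-month replicate 2 and 18-month replicate 2. Rps13 and Rps10 were the other genes called lower, at -0.60 and -0.59, named here after their values were seen.

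Rps18, a protein of the small subunit's head, was the 1 gene called higher at 18 months in bone marrow. It had 12.76, 12.77 and 12.86, against 11.88, 12.28 and 12.72 at 6 months, barely apart. The difference was 0.51 (adjusted p = 0.0477), and 0.30 without bone marrow 6-month replicate 1 (adjusted p = 0.197). The call was lost in 16 of the 18 fits that left out 1 array. Fitted on the 6 compared arrays alone, the 18-month comparison in bone marrow called 0 genes in either direction.

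In epididymal adipocytes 44 of the 59 genes had a higher mean at 14 months than at 6 months. The mean of the 59 genes was 9.48 ± 0.13 at 6 months, 9.70 ± 0.10 at 14 months and 9.53 ± 0.08 at 18 months (SD, n = 3 arrays each), and the mean of 38 genes was highest at 14 months. No share over all probe sets was taken for the counts of 44 and 38 genes. The array means overlapped, at 9.60 to 9.79 at 14 months and 9.37 to 9.62 at 6 months. At 14 months 13 genes were higher and 0 lower than at 6 months (background 10.2% higher and 7.51% lower), with a median of 0.22, beside -0.04 over all probe sets. In 24 genes the 3 arrays of 14 months lay above those of 6 months (background 17.3%), and in 4 below them (background 18.6%). The count of 13 was 4 without epididymal 6-month replicate 3, and 24 without bone marrow 6-month replicate 1, which enters through the shared error. For both fits no share over all probe sets was taken. With arrays centred on their median 6 genes were higher and the median was 0.09, since that scaling moved all probe sets at 14 months to -0.16.

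Rpl21 rose at both older ages. It had 12.62, 12.48 and 12.43 at 14 months and 12.59, 12.47 and 12.35 at 18 months, against 12.16, 12.06 and 12.02 at 6 months. Both older groups were above the youngest, by 0.43 (SE 0.10, adjusted p = 0.00363) and 0.39 (adjusted p = 0.00948). The later call was lost without epididymal 18-month replicate 1 (0.33, adjusted p = 0.0663) and with arrays centred on housekeeping genes (adjusted p = 0.112).

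Rps15 had 11.24, 11.37 and 11.04 at 14 months, against 10.66, 10.50 and 10.34 at 6 months in epididymal adipocytes, without overlap. It was higher by 0.71 (SE 0.18, adjusted p = 0.00785), and every fit that left out 1 array called it. With the mean over the gene's probe sets it was 0.76 (adjusted p = 0.0758). Rps15a had 7.50, 7.34 and 7.25 at 14 months, against 6.998, 6.23 and 6.26 at 6 months, also apart, by 0.87 (SE 0.23, adjusted p = 0.0119). Its call was lost without epididymal 6-month replicate 2 (adjusted p = 0.0695), 6-month replicate 3 or 14-month replicate 1. Rpl36 had 10.26, 10.57 and 10.06 at 14 months, against 9.69, 9.61 and 9.42 at 6 months, apart by 0.73 (SE 0.18, adjusted p = 0.00865). Without epididymal 14-month replicate 2 it was 0.59 (adjusted p = 0.059).

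Genes of other cell types moved in the same 14-month arrays. Of 8 macrophage and monocyte markers, 7 rose and 1 fell, and their array mean was 9.56 to 10.12 at 14 months, against 7.71 to 8.23 at 6 months. Of 6 fibroblast markers 5 rose, with array means of 11.41 to 11.75 at 14 months, against 10.28 to 10.40 at 6 months. Of 6 endothelial markers 3 rose, with array means of 9.29 to 9.42 at 14 months, against 8.56 to 8.70 at 6 months. Their part in the higher ribosomal protein values was not tested. At 18 months 6 of 8 macrophage markers were below 6 months, with array means of 6.42 to 6.51, as were 5 of 6 endothelial markers, at 7.56 to 7.68.

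At 18 months 1 ribosomal protein gene was higher and 2 were lower than at 6 months in epididymal adipocytes (background 8.22% higher and 8.01% lower). These counts were 4 and 3 without bone marrow 6-month replicate 1. All 3 arrays of 18 months were above those of 6 months in 8 genes (background 18.6%) and below them in 7 (background 23.1%). Rpl30, which in yeast binds its own transcript, had 7.43, 6.62 and 6.92 at 18 months, against 8.07, 8.01 and 7.56 at 6 months. The groups did not overlap, and the difference was -0.89 (SE 0.24, adjusted p = 0.0152), with a highest adjusted p of 0.0926 when 1 array was left out (epididymal 18-month replicate 2). The call was also lost without epididymal 6-month replicate 1 or 2. Rps6 had 12.43, 12.47 and 12.69 at 18 months, against 12.95, 12.82 and 12.94 at 6 months, apart by -0.38 (SE 0.11, adjusted p = 0.031). Its call was lost without epididymal 18-month replicate 1 (adjusted p = 0.139) or 2, or 6-month replicate 1 or 3, and with arrays centred on their median (adjusted p = 0.0848).

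**Figure D3:**
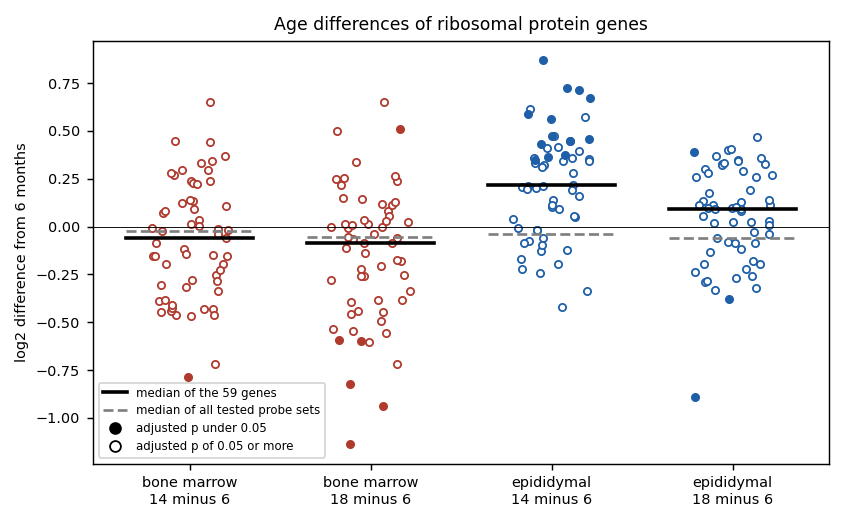
Log2 difference of each of the 59 genes from 6 months (vertical axis) at 14 and 18 months in bone marrow (red) and epididymal adipocytes (blue), with filled points for an adjusted p under 0.05, solid lines for the median of the genes and dashed lines for the median of all tested probe sets. The 14-month epididymal points have the highest median, 0.22, and 13 filled points, while the bone marrow medians of -0.06 and -0.08 lie close to those of all probe sets.

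The change with age was set against the depot directly. At 14 months the change was lower in bone marrow than in epididymal adipocytes in 9 genes and higher in 0 (background 6.53% lower and 5.07% higher), with a median of -0.30. Limma gave 18 genes an unadjusted p under 0.05 in either direction in that comparison, a count with no share over all probe sets beside it. At 18 months it was lower in 2 genes and higher in 1 (background 5.02% lower and 3.49% higher), with a median of -0.24. The 9 genes at 14 months were 3 without epididymal 6-month replicate 3, and the 2 lower genes at 18 months were 9 without bone marrow 6-month replicate 3. Such counts with an array left out again have no share over all probe sets. Without bone marrow 6-month replicate 1, 12 were lower at 14 months and 4 at 18 months, among them Rpl5 at 14 months (-0.60, adjusted p = 0.0228) and Rps4l at 18 months (-0.90, adjusted p = 0.0174). Of the 8 macrophage markers, the change at 14 months was lower in bone marrow in 7 and higher in 1, and at 18 months it was higher in 5, and their part was not tested. The median at 14 months stayed below 0 under every scaling tried, at -0.32 to -0.15, whereas that at 18 months was 0.14 with arrays centred on housekeeping genes. That scaling moved the median of all probe sets at 18 months to 0.39, so the genes still lay below it. The -0.15 at 14 months came with arrays centred on their median, where all probe sets had 0.17.

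Rps15 had the largest difference at 14 months. In bone marrow it had 11.38, 11.44 and 11.40 at 14 months, against 12.29, 11.47 and 11.48 at 6 months, a change of -0.34 (adjusted p = 0.287), beside the rise of 0.71 in epididymal adipocytes. The changes differed by -1.05 (SE 0.25, adjusted p = 0.00895), and by -0.78 without bone marrow 6-month replicate 1. This call held in every fit that left out 1 array and in each of the 11 other settings.

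Rps28 and Rpl34 differed by -1.02 (adjusted p = 0.022) and -1.01 (adjusted p = 0.0455) at 14 months. Rps28 had 10.29, 10.42 and 10.38 in bone marrow at 14 months, against 10.88, 11.07 and 10.43 at 6 months, and 9.43, 9.35 and 9.03 in epididymal adipocytes at 14 months, against 8.87, 8.77 and 8.40 at 6 months. The 14-month arrays were thus all below those of 6 months in bone marrow and all above them in epididymal adipocytes. In bone marrow they were barely apart, at 10.42 against 10.43, and the change was not called. The epididymal rise of 0.59 (adjusted p = 0.0465) lost its call in 10 of the 18 fits that left out 1 array. It was also lost in 5 of the 11 other settings. For the difference between depots, the call of Rps28 was lost by ordinary analysis of variance (adjusted p = 0.0603). It was also lost in 4 fits that left out 1 array, with adjusted p up to 0.0677. Those were without bone marrow 6-month replicate 2, epididymal 6-month replicate 3 and epididymal 14-month replicates 1 and 2. The call of Rpl34 was lost in 12 such fits, with -0.69 (adjusted p = 0.0792) without bone marrow 6-month replicate 1. Rps29 at -0.82 lost its call in 10 such fits and Rpl28, a protein that budding yeast lacks, at -0.60 in 8. Of the 11 other settings, 4 lost the call of Rpl34, 6 that of Rps29 and 4 that of Rpl28. The other 4 genes called, named after their values were seen, were Rpl36a at -0.90, Rps4x at -0.73, Rps10 at -0.73 and Rpl38, which aids translation of Hox mRNAs in mouse embryos, at -0.58.

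Rpl30 went the other way at 18 months. It had 9.20, 8.60 and 8.60 in bone marrow at 18 months, against 7.66, 8.13 and 8.65 at 6 months, and its 18-month epididymal arrays lay at 7.43, 6.62 and 6.92, as given above. The change differed by 1.54 (SE 0.34, adjusted p = 0.00795), called in every fit that left out 1 array and in each of the 11 other settings, with 1.30 to 1.80 as arrays were left out. The depot difference of Rpl30 was 0.26 at 6 months (adjusted p = 0.403), 0.21 at 14 months (adjusted p = 0.532) and 1.81 at 18 months (adjusted p = 2e-06). The changes of Rpl28, at -0.71 (adjusted p = 0.0168), and Rpl37a, at -1.01 (adjusted p = 0.0376), were lower in bone marrow. Rpl28 had 11.95, 12.04 and 12.19 at 18 months, against 12.76, 12.33 and 12.24 at 6 months in bone marrow, and 11.57, 11.64 and 11.52 at 18 months, against 11.40, 11.18 and 11.17 at 6 months in epididymal adipocytes. The older arrays were all lower in bone marrow, narrowly so at 12.19 against 12.24, and all higher in epididymal fat. Neither change was itself called, at -0.38 in bone marrow and 0.33 in epididymal fat. The call of Rpl28 held without each array but was lost with arrays centred on housekeeping genes (-0.34, adjusted p = 0.138) and with the compared groups alone (adjusted p = 0.0522). That of Rpl37a was lost in 8 fits that left out 1 array and in 6 of the 11 other settings, with a value of -0.67 without bone marrow 6-month replicate 1.

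**Figure D4:**
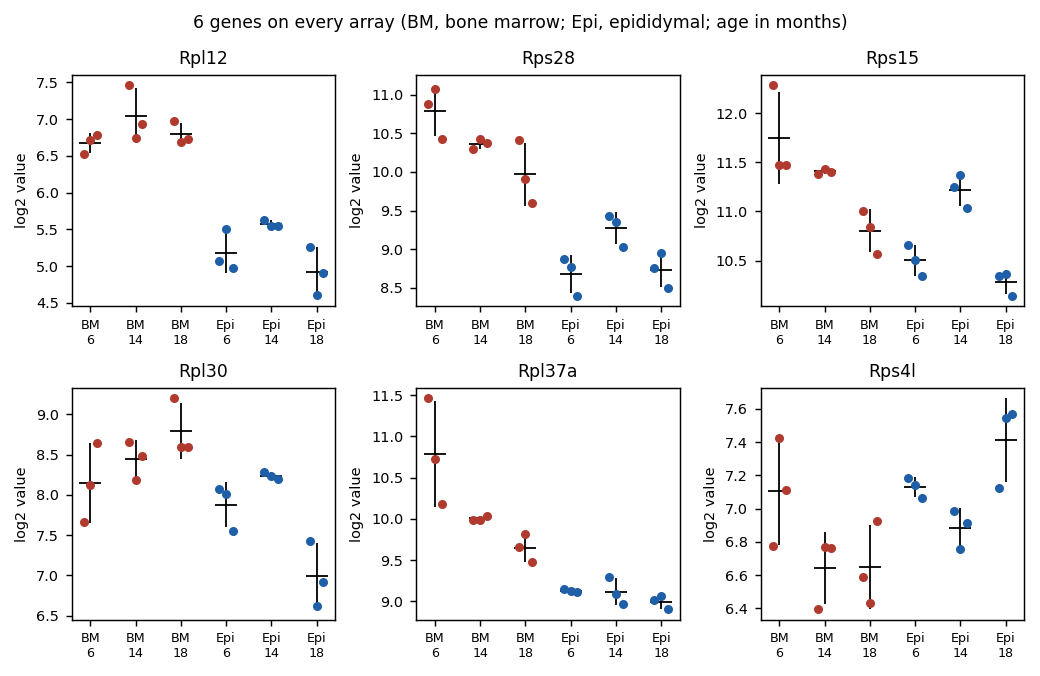
Log2 values of 6 genes on every array (points), with group means (horizontal bars) and standard deviations (vertical bars), for bone marrow (BM, red) and epididymal adipocytes (Epi, blue) at 6, 14 and 18 months. Rpl12 keeps its depots apart at all ages, Rps28 and Rps15 draw together at 14 months, Rpl30 parts at 18 months, and Rpl37a is highest and most spread in 6-month bone marrow.

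Other genes of translation were set beside the ribosomal proteins, with each list given by its counts over the 3 ages. Of 16 measured other genes with TOP mRNAs, 9 were higher and 3 lower in bone marrow, with a median of 0.43. These included Eef1b2, which recharges elongation factor 1, at 1.19, Fau, whose product is cut to release a small subunit protein, at 1.06, and the nucleolar chaperone Npm1 at 1.05. Of 25 initiation factors, 4 were higher and 9 lower (median -0.08), with Eif2b3, a subunit of the exchange factor eIF2B, at -1.61, the scanning factor Eif1a at -1.496 and Eif3k at 0.99. Of 40 ribosome biogenesis genes, 13 were higher and 14 lower (median -0.09), and of 15 genes of RNA polymerase I, 7 were higher and 3 lower (median 0.11). The medians of these 3 lists thus lay within 0.11 of 0.

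Genes that control TOP mRNAs and the ribosomal protein genes of mitochondria ran lower in bone marrow. Of 20 genes of mTORC1 and TOP control, 3 were higher and 12 lower (median -0.39), among them Eif4ebp1, the inhibitor of cap-dependent initiation, at -1.82 and Deptor, an inhibitor of mTOR, at -1.34. Of 74 genes for the mitochondrial ribosome 50 fell below and 4 stood above epididymal fat (median -0.44), with Mrps6 at -3.22. At 18 months in epididymal adipocytes 21 of the 74 rose and 1 fell against 6 months, where 1 cytosolic gene rose and 2 fell. Of 10 genes of the Myc family, which drives ribosome production, 6 were higher and 2 lower (median 0.74). Of 12 targets of p53, 4 were higher and 8 lower (median -0.78).

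**Figure D5:**
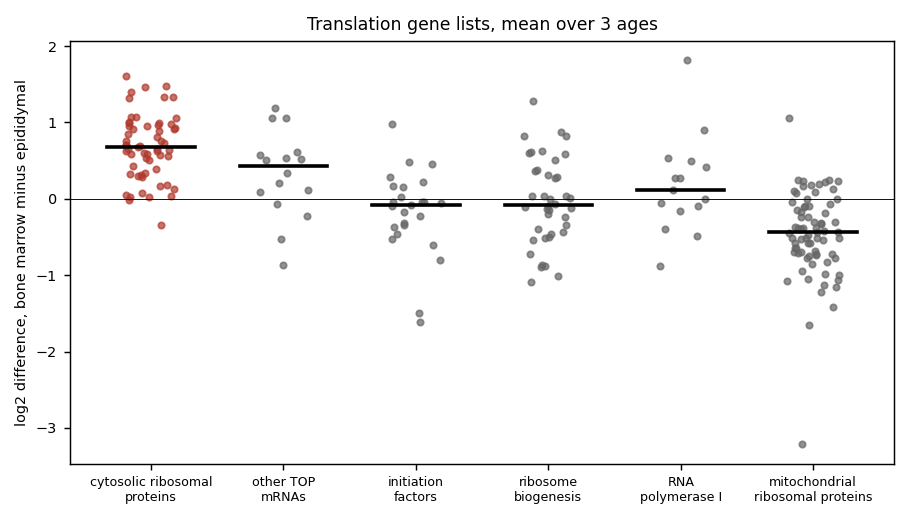
Log2 difference of each measured gene, bone marrow minus epididymal over the 3 ages (vertical axis), for the 59 cytosolic ribosomal protein genes (red) and 5 other lists (gray), with bars for the medians. The cytosolic genes lie almost wholly above 0, with a median of 0.68, and the mitochondrial ribosomal protein genes mostly below it, with a median of -0.44.

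Markers of blood cells differed between the depots too. All 8 neutrophil markers were higher in bone marrow, with array means of 11.95 to 12.60 in bone marrow, against 4.72 to 9.14 in epididymal arrays. The epididymal range was widest at 6 months, at 5.21 to 9.14, against 4.72 to 5.13 at 14 months and 6.64 to 7.14 at 18 months. All 5 measured erythroid markers were higher, at 9.92 to 10.97 in bone marrow and 5.33 to 7.27 in epididymal arrays. All 7 proliferation genes were higher too, at 9.90 to 10.71 in bone marrow and 6.19 to 7.29 in epididymal arrays. The highest epididymal means of the erythroid and proliferation lists were also of 6 months, with ranges of 5.64 to 7.27 and 6.19 to 7.29 there. Of 7 B lineage markers 6 were higher and 1 lower, at 7.57 to 9.07 in bone marrow and 5.92 to 6.63 in epididymal arrays. All 5 measured platelet and megakaryocyte markers and all 5 of T and NK cells were higher over the ages. Of 8 macrophage and monocyte markers all were higher over the ages, but at 14 months 3 were higher and 1 lower. The depot medians at 6, 14 and 18 months were 5.92, 7.21 and 5.12 for neutrophil and 4.27, 4.24 and 6.61 for erythroid markers. Those of the ribosomal protein genes were 0.85, 0.57 and 0.66. The part of these blood cells in the higher ribosomal protein values was not tested.

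Promoters were compared with those of all genes in the RefSeq table. A promoter was listed for 47 of the 59 genes, but not for Rpl7, Rpl8, Rpl21, Rpl23a, Rpl29, Rpl30, Rpl36, Rplp1, Rps4l, Rps14, Rps20 and Rps29. The longest run of C and T on the coding strand, in the window of 50 bases before and 30 from the start, had a median of 8 bases in the 47 genes and of 6 bases in all 27025 promoters. A run of 8 or more was present in 24 of them (51.1%), against 30.2% of all promoters. The ETS core CCGGAAG, searched on both strands from 250 bases before to 50 after the start, was present in 17 (36.2%), against 9.12% of all. The YY1 core AAGATGGC was present in 1 (2.13%, against 2.88%), the E-box CACGTG in 4 (8.51%, against 7.24%) and TATAAA in 5 (10.6%, against 14.2%).

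Among the genes with a listed promoter, the median depot difference was close with and without the longer run or the ETS core. No test was made of this. Genes with a run of 8 or more had a median difference of 0.63 and those with shorter runs 0.65. Genes with the ETS core had 0.63 and those without it 0.67. Both ends of the order appear in the windows printed above: Rps15a and Rps6 both had a run of 10 bases, with differences of 1.39 and 0.06, while Rps28 with a run of 5 bases had 1.48.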

How the data were processed

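Labelled RNA of each pool was read on an Affymetrix Mouse Gene 1.0 ST array, 18 in all. The paper's methods give gcRMA with quantile normalization in Partek, while the legend of its additional figure gives RMA. The log2 values, taken as deposited, entered every step. They did not share 1 distribution: array medians over all probe sets ran from 5.33 to 5.65, and values of equal rank differed by up to 0.58. Every column of values was mapped to a sample. Probe sets were named through the platform annotation, and 23410 of 35556 name a gene. All arrays entered 1 fit with a mean per group (limma 3.58.1 in R 4.3.3), and p-values were adjusted by Benjamini-Hochberg within each comparison over all 23410; a call is an adjusted p under 0.05. Plots and promoter counts used Python 3.11.15. The fit was tested on simulated data. Differences are bone marrow minus epididymal or older age minus 6 months. The number of arrays limits precision.

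Members and lists were chosen with earlier results of these data known. Genes named were the 3 largest called rises and falls of each comparison whose groups did not overlap, paralogs, stalk proteins, Rpsa, Rpl5, Rpl23, Rps6, Rps19, and up to 3 genes per list; other members were named after their values were seen. Alternatives changed scaling, test, weights, filters, probe sets, replicate block and arrays left out.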

Additional observations from a re-analysis of the deposited data

Results flagged for a closer look

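In 12 cases the change with age differed between the depots by a test of the difference itself (bone marrow minus epididymal, adjusted p under 0.05). At 14 months the changes differed by -1.05 in Rps15, -1.02 in Rps28, -1.01 in Rpl34, -0.90 in Rpl36a, -0.82 in Rps29, -0.73 in Rps4x, -0.73 in Rps10, -0.60 in Rpl28 and -0.58 in Rpl38. At 18 months they differed by 1.54 in Rpl30, -1.01 in Rpl37a and -0.71 in Rpl28. The calls of Rps15, Rpl30 and of Rpl28 at 18 months held in each fit that left out 1 array.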

How the results depend on the processing

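Of the values of named genes under the alternatives, 7436 kept direction and side of the threshold, 145 gained a call, 191 lost one and 1 turned sign: Rpl39l at 18 months, to 0.14 with housekeeping centring. In the counts that follow, higher and lower are genes called, the cause of each shift was not tested, and counts and medians not given moved less. No share of all probe sets called was taken under these alternatives. Some scalings shifted the all-probe-set median beyond 0.1: median centring gave 0.16 for the depot difference at 14 months, -0.16 for 14 against 6 months in epididymal fat and 0.17 for the difference of these changes, repeated quantile normalization gave -0.13 for the depot difference at 18 months, and housekeeping centring gave 0.20 over the ages, 0.17 at 14 and 0.43 at 18 months between depots, 0.19 at 14 and 0.22 at 18 months within bone marrow, -0.17 for 18 against 6 months in epididymal fat, and 0.13 and 0.39 for the changes. The housekeeping genes were themselves lower in bone marrow in 7 of 13 cases.

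Median centring gave a depot median of 0.74 at 14 months and 1 lower at 18 months. In epididymal fat it gave 6 higher, 1 lower and a median of 0.0944 at 14 months, and 5 higher and 1 lower at 18 months. The depots' changes had 1 higher, 4 lower and a median of -0.15 at 14 months and 5 lower at 18 months. The 75th percentile gave 1 lower for the depots at 18 months, 3 lower in bone marrow at 14 months and 1 lower for the changes at 18 months. Repeated quantile normalization gave 2 lower in bone marrow at 14 months, and 1 lower at 14 and 2 higher at 18 months in epididymal fat. Housekeeping centring gave 0 lower and a median of 0.91 over the ages, medians of 0.75 at 14 months and 1.09 at 18 months, and 0 lower at 18 months. In bone marrow it gave 2 higher and a median of 0.15 at 14 months, and 6 higher, 3 lower and 0.19 at 18 months. In epididymal fat it gave 0 higher and -0.0112 at 18 months, and for the changes -0.18 at 14 months, and 5 higher, 0 lower and 0.14 at 18 months.

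The compared groups alone gave 0 lower at 14 months and 0 higher and 0 lower at 18 months in bone marrow, 1 lower at 14 and 5 higher at 18 months in epididymal fat, and 5 and 0 lower for the changes. Analysis of variance gave 0 lower at 14 and 0 higher at 18 months in bone marrow and 2 higher at 18 months in epididymal fat. Array weights gave a depot median of 0.94 at 6 months, 0 higher and -0.19 in bone marrow at 18 months, 22 higher at 14 months, 14 higher and 5 lower at 18 months in epididymal fat, and 8 lower and -0.36 for the changes at 18 months. Leaving out dim probe sets gave 1 lower for the depots at 18 months, 3 and 9 lower in bone marrow at 14 and 18 months and 6 lower for the changes at 18 months. Testing all probe sets gave 0 higher in bone marrow at 18 months, and 5 and 1 lower for the changes. The mean over probe sets gave 1 lower at 6 and 1 lower at 14 months for the depots, 2 lower in bone marrow at 14 months, 2 higher in epididymal fat at 18 months and 6 lower for the changes at 18 months. Shared probe sets, added after seeing the data, gave a median of 0.32 at 14 months and 3 higher at 18 months in epididymal fat, and 4 lower for the changes. A fold of 2 left 11 higher and 0 lower over the ages, 25 at 6 months, 10 at 14 months, and 13 higher and 0 lower at 18 months.

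No source used here says that a replicate number marks the same mice in both depots, and over all probe sets 1 of 9 pairs of same-numbered arrays had a correlation over 0.1, so the arrays were not taken as paired. Over the 59 genes alone the 3 pairs of 18 months had 0.37, 0.35 and 0.71 and the other 6 pairs -0.20 to 0.01. With the replicate block, 1 gene was lower at 18 months between depots and 7 for the changes at 18 months, Rps28, Rpl34 and Rps15 among them, while Rpl39l lost its call at 18 months (adjusted p = 0.0632) and Rps29 that for the changes at 14 months (adjusted p = 0.0549); the other counts stayed within 1.5 times.

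With 1 array left out, the depot comparison had 48 to 51 higher, 1 to 1 lower and medians of 0.64 to 0.71; at 6 months 40 to 48, 0 to 1 and 0.79 to 0.94; at 14 months 33 to 44, 0 to 0 and 0.49 to 0.60; at 18 months 37 to 47, 1 to 2 and 0.61 to 0.69. Bone marrow had 0 to 2 higher, 0 to 9 lower and -0.11 to 0.0012 at 14 months, and 0 to 3, 4 to 16 and -0.19 to -0.0217 at 18 months. Epididymal fat had 4 to 24, 0 to 1 and 0.20 to 0.35 at 14 months, and 0 to 4, 0 to 3 and 0.02 to 0.16 at 18 months. The changes had 0 to 1, 3 to 12 and -0.38 to -0.19 at 14 months, and 1 to 4, 1 to 9 and -0.32 to -0.13 at 18 months.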
